A study of Arabidopsis thaliana with 9 samples.

Results

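COR15A, COR15B, COR47, COR413-PM1, KIN1, KIN2, RD29A, RD29B, ERD10 and RD20 are the classical transcripts that accumulate when Arabidopsis thaliana is chilled or dried. These 10 genes were taken by locus identifier from a table of 33278 loci, and all 10 passed the filter that kept 19917 loci for testing. Each was measured by RNA-seq in whole 6-day seedlings, in 2 libraries of wild-type Columbia-0 and 2 libraries labelled as hd2b hd2c double mutants, all raised in continuous light at 21 °C on soil. No cold, drought or hormone treatment appears in the labels, so the levels below are those of plants without a stated stress. The labels give neither the alleles of the mutations nor whether the libraries of a genotype are separate growths of plants; p-values therefore measure the spread between these libraries, which may be technical. The other 5 of the 9 samples of the series, chromatin and RNA immunoprecipitations from 2-week leaves, are not analysed here.

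Chilling activates the CBF transcription factors, which bind the C-repeat or dehydration-responsive element in the promoters of COR genes. Drought and salt raise abscisic acid, which acts through receptors, type 2C phosphatases and SnRK kinases on the ABF factors that bind the abscisic acid-responsive element. The proteins made from these genes are mostly small and hydrophilic, and they protect membranes and enzymes from freezing and drying. HD2B and HD2C belong to the plant-specific HD2 family of histone deacetylases. HD2C is known from work on chilled plants as a partner of HOS15 that helps to keep COR chromatin deacetylated before cold. The comparison of the genotypes asks how transcripts change when HD2B and HD2C are both mutated.

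Levels are given in the deposited FPKM unit, which divides fragments by the length of the transcript and by the mapped total. FPKM allows levels to be set side by side between genes. The table holds no counts, which leaves the depth unknown and allows no counting interval. Columns summed to 956002 to 1105981 FPKM, and 19537 to 19767 loci reached 1 FPKM in each library. HD2B stood at 138 and 191 FPKM in wild type against 24.2 and 24.3 FPKM in the labelled mutants (log2 change −2.69, SE 0.17, adjusted p = 3.62e-04). HD2C, at 56.1 and 63.9 FPKM against 74.7 and 55.8 FPKM, was not lower (adjusted p = 0.791), so the libraries are called labelled mutants and every direction rests on the label and on HD2B. Of the remaining HD2 genes, HD2D rose from 45.8 and 50.9 FPKM to 75.9 and 86.3 FPKM (log2 0.73, SE 0.13, adjusted p = 0.0476). That call was lost in 5 settings: when wild-type library 1 (adjusted p = 0.195) or labelled mutant library 2 (0.0624) was left out, at a pseudocount of 0.1 (0.0514), without trend and robust moderation (0.0981) and with no filter on low values (0.309). HD2A, at 48.9 and 69.9 FPKM against 95.3 and 124 FPKM, did not pass (log2 0.88, adjusted p = 0.109). HD2A did pass with the replicate number as a block (0.0108, and 0.0241 with the span trend also removed), after scaling without rRNA loci (0.0273) or to equal column sums (0.0177), and when wild-type library 2 was left out (0.00474). Shoot markers (rubisco small subunit and light-harvesting genes) summed to 40623 to 54479 FPKM per library, and all 8 root markers were detected in every library, so both organs of a seedling were present. Log2 changes subtract the wild-type mean of log2(FPKM + 1) from that of the labelled mutants and were tested with limma and adjusted by Benjamini-Hochberg over the 19917 loci, and changes with an adjusted p under 0.05 are said to have risen or fallen. This scale understates the change of weakly expressed genes.

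RD29A and RD20 fell in the labelled mutants, and none of the 10 genes rose. The fitted change was below 0 for all 10, with a median of −0.50 against 0.00 for all tested loci, and 49.3% of all tested loci lay below 0. The 2 falls compare with 110 among all tested loci, which is 0.552%. A further 121 loci (0.608%) rose, so 1.16% passed in either direction. In 7 of the 10 genes both labelled mutant libraries lay below both wild-type libraries, an arrangement found in 25.1% of all tested loci. The remaining 3 genes, COR15A, COR413-PM1 and RD29B, overlapped between genotypes. Summed over the 10 genes, the level was 2002 and 1444 FPKM in the wild-type libraries against 1085 and 1136 FPKM in the mutant-labelled ones, or 0.203% and 0.146% of the column sums against 0.113% and 0.103%. The summed level was therefore lower in both labelled mutant libraries, and the wild-type libraries differed from each other by more than the labelled mutant libraries did. KIN2, which was not called, held 952 and 540 FPKM of the wild-type sums and 384 and 377 FPKM of the mutant-labelled ones. It was the largest single part of both differences. In RNA from whole seedlings, fewer cells that express a gene and less of its RNA per cell cannot be told apart.

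**Figure D1:**
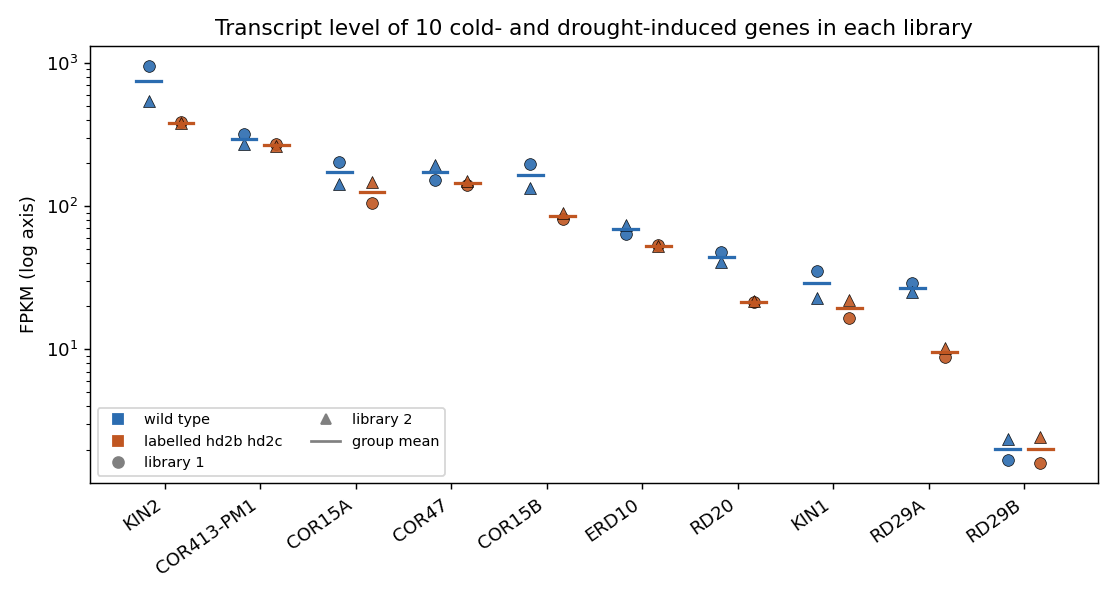
FPKM of each gene (log axis) in the 2 wild-type libraries (blue) and the 2 labelled mutant libraries (orange), with circles for library 1, triangles for library 2 and bars for group means. Genes run from KIN2, at 952 and 540 FPKM in wild type, to RD29B, at 1.68 and 2.36, and the groups stand farthest apart for RD29A and RD20.

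The genes spanned more than 2 orders of magnitude in wild type. KIN2 was the most abundant at 746 ± 291 FPKM (SD, n = 2 here and below), rank 128 among the 19917 tested loci, followed by COR413-PM1 at 295 ± 33.9 FPKM. COR15A (173 ± 44.2), COR47 (172 ± 28.7) and COR15B (164 ± 44.2 FPKM) came next, and each overlapped with its neighbour in that order. ERD10 (69.3 ± 7.09) and RD20 (44.2 ± 5.15 FPKM) stood lower and were separated from each other in both libraries. KIN1 (29.2 ± 8.88) and RD29A (27.0 ± 2.75 FPKM) overlapped, and RD29B was the lowest at 2.02 ± 0.479 FPKM, at the 9.12th percentile of the tested loci. In the labelled mutants the order differed in 1 exchange: COR47 (145 ± 5.43 FPKM) stood above COR15A (126 ± 29.7), and these 2 genes overlapped in both genotypes. RD20 and KIN1, which did not overlap in wild type, did so in the labelled mutants, at 21.5 ± 0.270 and 19.4 ± 3.98 FPKM.

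RD29A and RD29B lie next to each other on chromosome 5 and encode related hydrophilic proteins. The RD29A promoter, which carries both C-repeat and abscisic acid-responsive elements, is a standard reporter of cold and osmotic stress, whereas RD29B responds mainly to abscisic acid. RD29A (LTI78, AT5G52310) measured 28.9 and 25.05 FPKM in the wild-type libraries against 8.80 and 10.2 FPKM in the mutant-labelled ones. Both labelled mutant libraries were therefore well under the lower wild-type library. The mean was 2.83-fold lower (log2 −1.41, SE 0.13, 95% interval −1.72 to −1.11, adjusted p = 0.00341), and it ranked 57 from the lowest among all tested changes. RD29B (LTI65, AT5G52300) measured 1.68 and 2.36 FPKM in the wild-type libraries against 1.61 and 2.44 FPKM in the mutant-labelled ones. In each genotype library 2 was the higher one, and the genotypes overlapped fully. Its log2 change was −0.0025 (SE 0.20, adjusted p = 0.997), with a 95% interval from −0.47 to 0.47. The scale of log2(FPKM + 1) understates fold changes at the level of RD29B, so this interval cannot be set directly against the change of RD29A.

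RD20 encodes a stress-induced caleosin, a calcium-binding peroxygenase of lipid droplets, and is also named CLO3. RD20 (AT2G33380) measured 47.8 and 40.5 FPKM in the wild-type libraries against 21.3 and 21.7 FPKM in the mutant-labelled ones. The labelled mutant libraries were nearly equal, and both lay under both wild-type libraries. The mean was 2.06-fold lower (log2 −1.003, SE 0.13, 95% interval −1.29 to −0.71, adjusted p = 0.0113). The RD29A and RD20 calls were kept without any single library, with adjusted p of at most 0.00875 for RD29A and 0.0252 for RD20. They ended with no filter on low values (adjusted p = 0.222 and 0.249), a setting under which the log2 changes were the same and 33278 loci were tested. Under it the SE was 0.13 for RD29A and 0.11 for RD20, and the HD2B call also ended (adjusted p = 0.197). The cause of these losses was not tested.

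COR15A and COR15B are neighbouring genes on chromosome 2 whose products enter the chloroplast stroma and stabilise the inner envelope during freezing. COR15B (AT2G42530) measured 196 and 133 FPKM in the wild-type libraries against 81.1 and 89.3 FPKM in the mutant-labelled ones. The groups did not overlap, but the wild-type libraries lay 1.47-fold apart. The mean was 1.93-fold lower (log2 −0.92, SE 0.19, 95% interval −1.36 to −0.47) and did not pass (adjusted p = 0.0797). COR15B passed without wild-type library 2 (adjusted p = 0.00387), after rRNA loci were left out of the column scaling (0.0280) and after scaling to equal column sums (0.0180). COR15A (AT2G42540) measured 205 and 142 FPKM in the wild-type libraries against 105 and 147 FPKM in the mutant-labelled ones. Labelled mutant library 2 was above wild-type library 2, so the change differed in sign between the libraries numbered 1 (log2 −0.95) and those numbered 2 (0.05). The fitted change was −0.45 (SE 0.23, 95% interval −0.98 to 0.08, adjusted p = 0.362).

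KIN1 and KIN2 are closely related neighbours on chromosome 5 that encode very small hydrophilic proteins, and KIN2 is also known as COR6.6. KIN2 (AT5G15970) measured 952 and 540 FPKM in the wild-type libraries against 384 and 377 FPKM in the mutant-labelled ones. Both labelled mutant libraries were lower, and wild-type library 1 was 1.76-fold above wild-type library 2. The mean was 1.96-fold lower and did not pass (log2 −0.91, SE 0.26, 95% interval −1.52 to −0.30, adjusted p = 0.161). KIN1 (AT5G15960) measured 35.5 and 22.9 FPKM in the wild-type libraries against 16.6 and 22.2 FPKM in the mutant-labelled ones. The libraries numbered 2 were nearly equal, and most of the difference lay between those numbered 1. KIN1 was 1.51-fold lower (log2 −0.55, SE 0.23, 95% interval −1.11 to 0.01, adjusted p = 0.299). KIN1 and KIN2 passed once wild-type library 2 was left out (adjusted p = 0.0147 and 0.0149). How the authors' counting treated reads shared between such copies is not given in the sources used here, so the single levels of KIN1 and KIN2 and of COR15A and COR15B are uncertain.

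COR47 and ERD10 are neighbours on chromosome 1 and encode acidic dehydrins, disordered proteins that bind membranes and prevent aggregation of other proteins. ERD10 (AT1G20450) measured 64.3 and 74.3 FPKM in the wild-type libraries against 53.1 and 52.6 FPKM in the mutant-labelled ones. The groups did not overlap, and the change was small: the mean was 1.31-fold lower (log2 −0.38, SE 0.13, 95% interval −0.68 to −0.08, adjusted p = 0.201). COR47 (AT1G20440) measured 152 and 193 FPKM in the wild-type libraries against 141 and 149 FPKM in the mutant-labelled ones. The lowest wild-type value lay just above the highest labelled mutant value, and the mean was 1.19-fold lower (log2 −0.24, SE 0.16, 95% interval −0.60 to 0.12, adjusted p = 0.478). COR413-PM1 (AT2G15970) encodes a cold-induced protein with several membrane spans that is placed in the plasma membrane. It measured 319 and 271 FPKM in the wild-type libraries against 272 and 264 FPKM in the mutant-labelled ones. The lower wild-type library and the higher labelled mutant library were nearly equal, and the mean was 1.101-fold lower (log2 −0.13, SE 0.15, 95% interval −0.48 to 0.22, adjusted p = 0.707). For COR413-PM1 the interval leaves out a 2-fold fall.

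**Figure D2:**
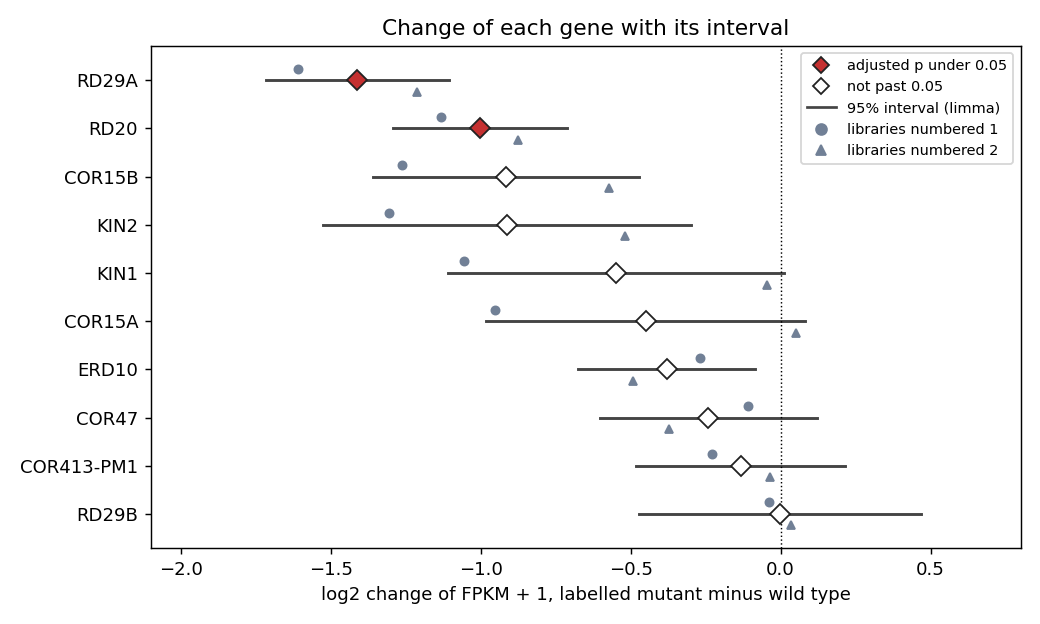
Log2 change of FPKM + 1 (labelled mutant minus wild type) for each gene, with the limma estimate (diamond, filled red where the adjusted p was under 0.05) and its 95% interval, and the change between libraries numbered 1 (circles) and numbered 2 (triangles). RD29A at −1.41 and RD20 at −1.003 are the filled diamonds; the circles of KIN2, KIN1, COR15A and COR15B lie far to the left of their triangles, and those of COR47 and ERD10 lie to the right.

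The genes also differed in how the libraries of 1 genotype related to each other. Wild-type library 1 was above wild-type library 2 for KIN2 (1.76-fold), KIN1 (1.55-fold), COR15B (1.47-fold) and COR15A (1.44-fold). It was moderately above for RD20 (1.18-fold), COR413-PM1 (1.18-fold) and RD29A (1.15-fold). Wild-type library 1 was the lower one for ERD10 (a ratio of 0.865), COR47 (0.789) and RD29B (0.713). The median change of the 10 genes was −1.003 for the libraries with number 1 and −0.43 for those with number 2. All 10 were lower between libraries numbered 1, and 8 were lower between those numbered 2. These 8 exclude COR15A and RD29B, and 32.8% of all tested loci were lower in both comparisons. The median over the 10 genes was −0.78 when wild-type library 2 was left out and −0.37 when labelled mutant library 1 was.

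Within each neighbouring pair, the ratio of the FPKM of one gene to the other was compared between genotypes, library by library. RD29A over RD29B was 17.2 and 10.6 in the wild-type libraries against 5.47 and 4.20 in the mutant-labelled ones, a log2 difference of −1.50 with no overlap. COR15A over COR15B was 1.05 and 1.07 in the wild-type libraries against 1.299 and 1.65 in the mutant-labelled ones, a log2 difference of 0.47, also with no overlap. COR15A was thus the more abundant in all 4 libraries, by little in wild type and by more in the labelled mutants. The handling of reads shared between such copies was not given, so this ratio and that of KIN2 over KIN1 are uncertain. KIN2 over KIN1 was 26.8 and 23.6 in the wild-type libraries against 23.2 and 17.0 in the mutant-labelled ones, again with no overlap. COR47 over ERD10 was 2.36 and 2.59 in the wild-type libraries against 2.65 and 2.82 in the mutant-labelled ones, the smallest of the 4 shifts at a log2 of 0.14. The genotypes thus did not overlap in any of the 4 pairs, and how often other gene pairs separate was not measured. A two-sided exact permutation test over the 4 libraries gave p = 0.333 for each of the 4 pairs (adjusted p = 0.333), which is the smallest p that 2 libraries against 2 allow, so this test could not pass for any pair.

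**Figure D3:**
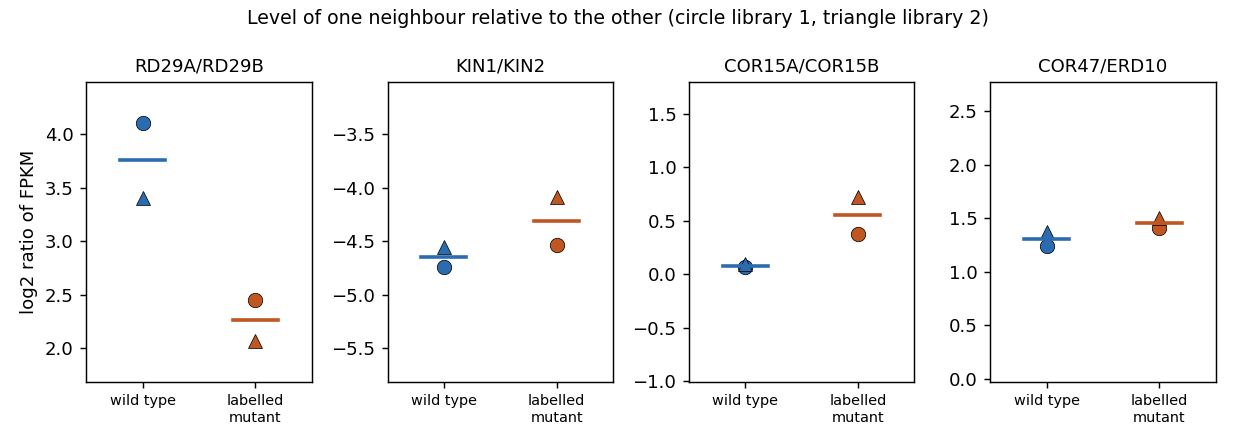
Log2 ratio of FPKM between neighbouring genes in each library (circle library 1, triangle library 2, bar group mean; each panel spans the same log2 range), wild type in blue and labelled mutants in orange. The RD29A to RD29B ratio was 17.2 and 10.6 for wild type against 5.47 and 4.20 for the labelled mutants, and the COR47 to ERD10 ratio lay between 2.36 and 2.82 in all 4 libraries.

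No other gene that flanks the members in the RefSeq gene order passed the limma test. Of 12 flanking loci 10 were tested, 3 had an unadjusted p under 0.05, all higher, and 4 lay below 0, with a median log2 change of 0.12 and a range from −0.62 to 0.51. Among all 19917 tested loci 3420 had an unadjusted p under 0.05, 1584 of them lower and the rest higher, and 49.3% lay below 0. An unadjusted p under 0.05 was reached by 5 of the 10 members, all of them lower and none higher, against 7.95% of all tested loci lower at that threshold.

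By the Euclidean distance between row-centred log2(FPKM + 1) profiles over the 4 libraries, the 11418 other loci with a mean of at least 10 FPKM and every library above 1 FPKM were ranked by likeness to RD29A. The nearest was AT1G68600 (distance 0.191), at 21.3 and 17.3 FPKM in the wild-type libraries against 5.10 and 6.92 FPKM. VSP2, a vegetative storage protein gene of the jasmonate response, followed at 0.239, then AT5G03350 (0.240) and AT1G64360 (0.315). The fifth was COR413IM1 (0.328), a gene of the cold pathway. Among the members, RD20 was the nearest to RD29A (0.427) and RD29B the farthest (1.46). Nearest to the mean profile of the 10 genes were AT1G51430 (0.0498), BGLU6 (0.0715), AT4G01460 (0.0958), TGG1 (0.0990) and AT2G23840 (0.0997). With 4 libraries these distances describe the direction and size of the differences between libraries and carry no test.

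Among the 87 other genes of the cold and drought pathway that were listed by function, 73 were tested, 1 fell and 2 were called higher, against 0.552% and 0.608% of all tested loci. XERO1, 1 of these 2, entered the test through the labelled mutant libraries alone. Their median log2 change was −0.11, and 49 of 73 lay below 0, against 49.3% of all tested loci.

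**Figure D4:**
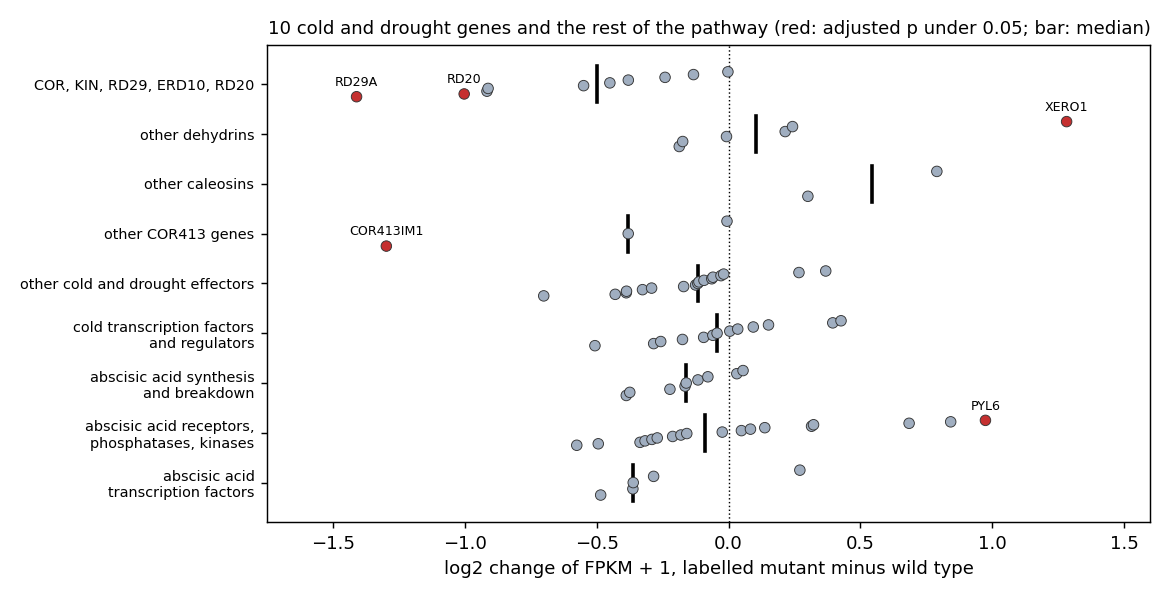
Log2 change of FPKM + 1 (labelled mutant minus wild type) of each tested gene, by list; red points had an adjusted p under 0.05 and bars are list medians. The 10 genes have a median of −0.50, and the red points outside them are COR413IM1 on the lower side and PYL6 and XERO1 on the higher side, XERO1 having passed the filter through the labelled mutants alone.

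The relatives of the members gave mixed values. The COR413 family holds, besides COR413-PM1, 1 more plasma membrane gene and 2 genes whose products lie in the chloroplast inner envelope. COR413IM1 (AT1G29395), of the inner envelope, fell from 137 and 115 FPKM to 40.3 and 63.0 FPKM (log2 −1.30, SE 0.21, adjusted p = 0.0444). Its neighbour COR413IM2 was lower without passing, at 98.3 and 89.4 FPKM against 68.7 and 74.9 FPKM (log2 −0.38, adjusted p = 0.204). The plasma membrane gene COR413-PM2 measured 54.2 and 53.0 FPKM in the wild-type libraries against 54.2 and 52.6 FPKM in the mutant-labelled ones (adjusted p = 0.987). COR413IM2 and COR413-PM2 were named after their values were seen. The COR413IM1 call ended with the replicate number as a block (adjusted p = 0.0965, and 0.0987 with the span trend also removed), without trend and robust moderation (0.0870) and with no filter on low values (0.433).

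Of 8 other dehydrin genes, 6 were tested and 1 was called. XERO1, a dehydrin, measured 0.266 and 0.217 FPKM in the wild-type libraries against 1.53 and 2.596 FPKM in the mutant-labelled ones (log2 1.28, SE 0.22, adjusted p = 0.0410). It passed the filter only through the group where it was higher, so the filter had fixed its direction, and it was not tested under a filter of 1 FPKM in all 4 libraries or when either labelled mutant library was left out. The call ended with quantile normalization (0.0825), after removal of the gene span trend (0.0774, and 0.0773 with the block), without trend and robust moderation (0.0561) and with no filter on low values (0.363). RAB18, a dehydrin strongly induced by abscisic acid and named here after its values were seen, measured 25.9 and 21.3 FPKM in the wild-type libraries against 13.03 and 41.4 FPKM in the mutant-labelled ones. The labelled mutant libraries lay on opposite sides of both wild-type libraries, and the fit gave a log2 change of −0.01 (SE 0.72, adjusted p = 0.997). Without labelled mutant library 1 its change was 0.79 (adjusted p = 0.0472), and without labelled mutant library 2 it was −0.81 (adjusted p = 0.0491). Of 6 other caleosin genes only 2 were tested, and neither passed, each with an unadjusted p under 0.05. That threshold was reached by 3420 of all 19917 tested loci, 1584 of them lower. CLO1 (ATS1), the caleosin of seed oil bodies, measured 0.704 and 0.272 FPKM in the wild-type libraries against 1.21 and 1.93 FPKM in the mutant-labelled ones (log2 0.79, SE 0.23, adjusted p = 0.154, but 0.0454 without wild-type library 1). CLO4 measured 18.3 and 21.5 FPKM in the wild-type libraries against 25.2 and 24.2 FPKM in the mutant-labelled ones (log2 0.30, adjusted p = 0.270). CLO1, like XERO1, passed the filter only through the labelled mutants.

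RD20 and several of the dehydrins belong to families that also serve dry seeds, so markers of dry seeds were measured too. The 8 seed markers (2S albumins, cruciferins and an oleosin) summed to 3.05 and 22.8 FPKM in the wild-type libraries against 164 and 345 FPKM in the mutant-labelled ones. None was at 0 in every library, SESA1, SESA2, SESA3, SESA4 and CRB were listed at 0 in wild-type library 1, and all 8 had both labelled mutant libraries above both wild-type libraries, an arrangement found in 24.2% of all tested loci. Of these 8 markers 5 were under 1 FPKM in both wild-type libraries and passed the filter through the labelled mutants alone. For those 5 the filter had fixed the arrangement, so the count of 8 cannot be set against that share. Only CRA1, CRC and OLEO1 were free to lie otherwise. The 3 that were called, SESA1, SESA2 and SESA4, are among those 5, so their calls are not counted as support. All 3 calls ended with no filter on low values, those of SESA1 and SESA4 also when either wild-type library was left out, and that of SESA2 also at a pseudocount of 0.1. Labelled mutant library 2 held the higher seed sum and also the higher RAB18 level, and the part of seed transcripts in the values of the 10 genes was not tested. Root markers summed to 43.9 and 66.6 FPKM in the wild-type libraries against 100 and 62.9 FPKM in the mutant-labelled ones. Shoot markers summed to 53502 and 48881 FPKM in the wild-type libraries against 40623 and 54479 FPKM in the mutant-labelled ones. The root sum was thus highest and the shoot sum lowest in labelled mutant library 1, and the part of organ proportions in the results was not tested.

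Genes listed as other cold and drought effectors, which include RD26, COR27 and COR28 besides protective proteins and enzymes, did not pass the limma test. Of 17 tested effectors 15 lay below 0, 6 had an unadjusted p under 0.05, all lower, and the median log2 change was −0.12. Of all tested loci 49.3% lay below 0 and 7.95% were lower at that threshold. GOLS2, a galactinol synthase that feeds raffinose synthesis in drought, measured 16.1 and 11.7 FPKM in the wild-type libraries against 7.66 and 8.45 FPKM in the mutant-labelled ones (log2 −0.70, SE 0.16, adjusted p = 0.108). GOLS2 passed without wild-type library 2 (adjusted p = 0.00543), after scaling without rRNA loci (0.0394) and after scaling to equal column sums (0.0301). ERD1, which encodes a Clp chaperone subunit of the plastid, measured 48.5 and 45.1 FPKM in the wild-type libraries against 36.4 and 32.6 FPKM in the mutant-labelled ones (log2 −0.43, SE 0.12, adjusted p = 0.150).

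The cold regulators and the genes of abscisic acid synthesis and breakdown did not pass the limma test. Of 16 cold transcription factors and regulators 13 were tested, 1 had an unadjusted p under 0.05 and was lower, and the median log2 change was −0.04. Of all tested loci 7.95% were lower at that threshold. CBF3 (DREB1A), a C-repeat binding activator, measured 3.83 and 2.33 FPKM in the wild-type libraries against 1.57 and 2.103 FPKM in the mutant-labelled ones (log2 −0.51, SE 0.22, adjusted p = 0.284). CAMTA3, a calmodulin-binding factor that promotes CBF expression, measured 12.1 and 12.8 FPKM in the wild-type libraries against 11.3 and 8.93 FPKM in the mutant-labelled ones (log2 −0.28, adjusted p = 0.354). For abscisic acid synthesis and breakdown 9 genes were tested, none passed, 2 had an unadjusted p under 0.05, both lower, and the median was −0.16. The 2 with the smallest p were ABA3, a cofactor sulfurase needed for the last synthetic step (log2 −0.39, adjusted p = 0.267), and NCED3, the carotenoid-cleaving enzyme that limits synthesis in drought (log2 −0.37, adjusted p = 0.273). With the gene span trend removed, the log2 change was −0.62 for CBF3, −0.14 for CAMTA3, −0.22 for ABA3 and −0.37 for NCED3.

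In abscisic acid signalling, PYR/PYL receptors bind the hormone and then block the type 2C phosphatases, which otherwise hold the SnRK2 kinases inactive. In the list of receptors, phosphatases and kinases 18 of 20 genes were tested, 1 rose and none fell. The riser was the receptor gene PYL6, from 3.31 and 4.59 FPKM to 8.87 and 8.41 FPKM (log2 0.97, SE 0.16, adjusted p = 0.0384). Its call ended without labelled mutant library 1 (0.0642), without labelled mutant library 2 (0.0589), after removal of the gene span trend (0.0719, and 0.0632 with the block), without trend and robust moderation (0.0765) and with no filter on low values (0.358). The receptor genes PYL4 (log2 0.68, adjusted p = 0.0607) and PYL5 (log2 0.84, adjusted p = 0.0888), named after their values were seen, were higher in both labelled mutant libraries without passing. When wild-type library 2 was left out both passed (adjusted p = 0.0422 and 5.20e-04), as they did after scaling to equal column sums (0.0299 and 0.0499). PYL4 also passed without labelled mutant library 2 (0.0362), after scaling without rRNA loci (0.0384) and with the replicate number as a block (0.0372). Split by protein class, a split made after the values were seen and not tested, 7 of 8 receptor genes lay above 0 and all 7 tested phosphatase genes lay below 0, from −0.58 to −0.16. Of all tested loci 49.3% lay below 0. In all 7 phosphatase genes and in 5 of the receptor genes the genotypes did not overlap, an arrangement found in either direction in 49.4% of all tested loci. Of 5 tested transcription factor genes none passed, 3 had an unadjusted p under 0.05, all lower, and the median was −0.36. Of all tested loci 7.95% were lower at that threshold. ABF3, a bZIP factor that binds the abscisic acid-responsive element, measured 45.1 and 49.7 FPKM in the wild-type libraries against 30.8 and 36.5 FPKM in the mutant-labelled ones (log2 −0.49, SE 0.13, adjusted p = 0.141). ABF3 passed after scaling without rRNA loci (0.0371) and after scaling to equal column sums (0.0314). ABF1, of the same family, measured 11.3 and 10.2 FPKM in the wild-type libraries against 8.46 and 7.79 FPKM in the mutant-labelled ones (log2 −0.36, adjusted p = 0.221).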

How the data were processed

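The authors deposited 1 table of FPKM values for each locus in each library, per the file headers. Per the labels' protocols, Trizol extracts went into TruSeq RNA libraries. The submitters' processing notes list TAIR10, TopHat, Bowtie2 and bedtools without their roles. The program and gene models behind FPKM, the use of strand and the handling of shared reads were not given in the sources used here. Ratios of low values lay on fixed steps for 54.9% of loci in 1 of the 6 library pairs, wild-type library 2 with labelled mutant library 2. In the other pairs they did so for at most 2.73%, so whole reads were not recovered. Why the libraries numbered 2 differed in this way was not tested.

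Loci reaching 1 FPKM in 2 or more of the 4 libraries were kept. Their log2(FPKM + 1) values were fitted on genotype alone with limma 3.58.1 in R 4.3.3, using trended and robust variance moderation. Two-sided p-values were adjusted by Benjamini-Hochberg over 19917 loci, with a threshold of 0.05. Folds are ratios of mean FPKM. The fit was also run on simulated data with normal errors and variances taken from the fitted model. Such data share the model's assumptions, so they cannot show whether these hold for the 4 libraries. Alternatives changed scaling, filter, pseudocount, moderation, length trend, block and libraries used. The members and lists were chosen with earlier results of these data known. The genes named are the members, the HD2 genes, in each pathway list those past the threshold or, with none, the 2 with the smallest p, and the 5 loci nearest in profile to RD29A and to the members' mean. COR413IM2, COR413-PM2, RAB18, PYL4 and PYL5 fall outside this rule and were chosen after their values were seen. Symbols and gene order came from a RefSeq table of TAIR10.1, matched for 98.6% of loci; its coordinates are not printed because the build's name differs.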

Additional observations from a re-analysis of the deposited data

How the results depend on the processing

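All 10 genes stayed below 0 under 12 of the 14 alternatives, and no alternative called any of them higher. Changing only the filter, the block or the moderation cannot move a log2 change, so those alternatives had to keep every sign. The span trend likewise gave the same changes with and without the block. RD29B changed sign, to 0.16 without wild-type library 2 and to 0.20 without labelled mutant library 1. It ranged from −0.20 to 0.20 when 1 library was left out.

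The count of genes that fell was 2 as reported, 0 with no filter on low values and 3 under both rescalings, and it ranged from 2 to 5 when 1 library was left out. The 5, without wild-type library 2, were RD29A, RD20, COR15B, KIN1 and KIN2. The median change of the 10 genes was −0.55 with quantile normalization, −0.55 with rRNA loci left out of the scaling, −0.55 with equal column sums, and −0.59 after removing the span trend, with or without the block. It ranged from −0.78 to −0.37 when 1 library was left out. Over all tested loci, lower and higher calls numbered 21 and 40 without the low-value filter, 246 and 286 with rRNA loci left out of the scaling, 276 and 327 with equal column sums, and 66 and 69 without trend and robust moderation. Higher calls numbered 61 with the span trend removed. With 1 library left out, lower calls ranged from 107 to 160 and higher calls from 146 to 390. The cause of these differences was not tested, beyond the fewer samples used: a group reduced to 1 library is assumed to vary like the other group.

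With the replicate number as a block, lower and higher calls numbered 172 and 260, and RD29A (adjusted p = 0.00341) and RD20 (0.00612) were called as without it. The labels tie same-numbered libraries only by number, and their deviations from the group means correlated at 0.168 across tested loci.

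In the pathway lists, lower and higher calls were 1 and 1 with quantile normalization and with a filter of 1 FPKM in all 4 libraries, 0 and 0 with no filter and without trend and robust moderation, 4 and 3 with rRNA loci left out of the scaling, 4 and 4 with equal column sums, 0 and 3 with the block, 1 and 0 with the span trend removed, and 0 and 0 with the span trend removed and the block. With 1 library left out they ranged from 1 to 2 and from 1 to 4. The log2 difference of RD29A over RD29B ranged from −1.84 to −1.15 when 1 library was left out, that of KIN1 over KIN2 from 0.12 to 0.57, of COR15A over COR15B from 0.30 to 0.64 and of COR47 over ERD10 from 0.08 to 0.21.

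Of 29 other genes named, recomputed after the data were seen, 5 values changed sign: RAB18 to 0.13 without wild-type library 1 and to 0.79 without labelled mutant library 1, HD2C to −0.10 without labelled mutant library 1, and COR413-PM2 to 0.0091 without wild-type library 1 and to 0.0149 without labelled mutant library 2. With 1 library left out, RAB18 ranged from −0.81 to 0.79, HD2C from −0.10 to 0.31 and COR413-PM2 from −0.027 to 0.0149. Over these genes and alternatives, 42 values lost the call and 20 gained one. Weakly expressed genes such as RD29B are limited by unknown depth.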
